A study of Mus musculus with 3 samples.

Results

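The genes described here are the enzymes, transporters and regulators of glycolysis, lactate handling, the pentose phosphate pathway and the tricarboxylic acid (TCA) cycle, measured in mouse splenic T lymphocytes after 10 h with LZ-8. LZ-8 is a protein of the medicinal mushroom Ganoderma lucidum that acts on cells of the immune system. The set was chosen by gene symbol, and all 43 symbols were found among the 44788 rows of the count table. The cells came from spleens of female mice of the Balb/c strain, aged 6 to 8 weeks, were taken out with magnetic beads against the pan-T-cell surface protein CD90.2, and were kept in RPMI medium with 2% fetal bovine serum. RNA was sequenced on an Ion PI chip as 3 libraries, replicates 1 to 3, which the labels place in the same group. No untreated or other-time library was part of the data analysed here, so no value below measures an effect of LZ-8. Nothing in the labels ties the replicates to separate mice or cultures, so the spread between them may be technical.

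Glycolysis splits glucose into pyruvate in the cytosol, and pyruvate either leaves the cell as lactate or enters mitochondria, where the pyruvate dehydrogenase complex feeds it to the TCA cycle. The pentose phosphate pathway branches off after the hexokinase step and makes NADPH and the ribose of nucleotides. T cells that are activated are known to take up more glucose and to turn much of it into lactate even when oxygen is present, while resting T cells rely more on mitochondrial oxidation.

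The libraries held 13239482, 15007652 and 15683820 counts in replicates 1, 2 and 3. Levels are CPM, the counts of a gene scaled to a common library total with factors from the trimmed mean of M-values (TMM), and a count of 3, the limit that a count of 0 allows, stood for 0.236, 0.198 and 0.186 CPM. The T cell label fitted its markers: 10 of 10 T cell markers exceeded 100 CPM, with a sum of 3505 to 3689 CPM. The 38 markers of B cells, macrophages, neutrophils, dendritic cells, NK cells, red cells and platelets that were found summed to 3.66 to 3.85% of that, 22 of them were under 1 CPM, and 9 were at 0, among them Csf1r, Ltf, Ncr1, Siglech, Klf1, Pf4, Ppbp and Gp9. The highest were Nkg7 at 51.0, Prf1 at 12.7 and Klrk1 at 10.3 CPM, NK markers that cytotoxic T cells also express, then Zbtb46 at 9.90 CPM (dendritic), Mpeg1 at 9.20 CPM (macrophage) and Itga2b at 7.90 CPM (platelet). The part of other cells in the levels below was not tested. Ribosomal RNA of the Rn18s row took 5.83% of counts in replicate 1, 2.37% in replicate 2 and 0.992% in replicate 3.

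Most of the set was detected. Its 43 genes took 0.759%, 0.767% and 0.774% of all counts in replicates 1, 2 and 3. All counts here include the Rn18s row, at 5.83% in replicate 1 and 0.992% in replicate 3, so the order of these shares is not read as a difference between libraries. Ldha, Pkm and Aldoa together made up 42.9%, 42.8% and 43.7% of the counts of the set. A mean of 10 CPM or more was reached by 36 of the 43 genes, against 39.8% of the 23131 genes with a count, and 21 reached 100 CPM, as did 2538 of those genes. The median gene of the set had 97.6 CPM, against 2.89 CPM for all genes with a count and 16.3 CPM for protein-coding genes with a count. Per kilobase of exon, the medians were 21.5 CPM for the set, 2.62 CPM for all genes and 3.66 CPM for coding genes. Genes are compared on this scale below unless CPM or counts are given, which are not corrected for length. Within the set Aldoa stood highest, at 388 CPM per kilobase, and Hk3 lowest, at 0.119 CPM per kilobase. In bulk RNA such as this, a level spread over all cells and a level in fewer cells cannot be told apart.

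**Figure D1:**
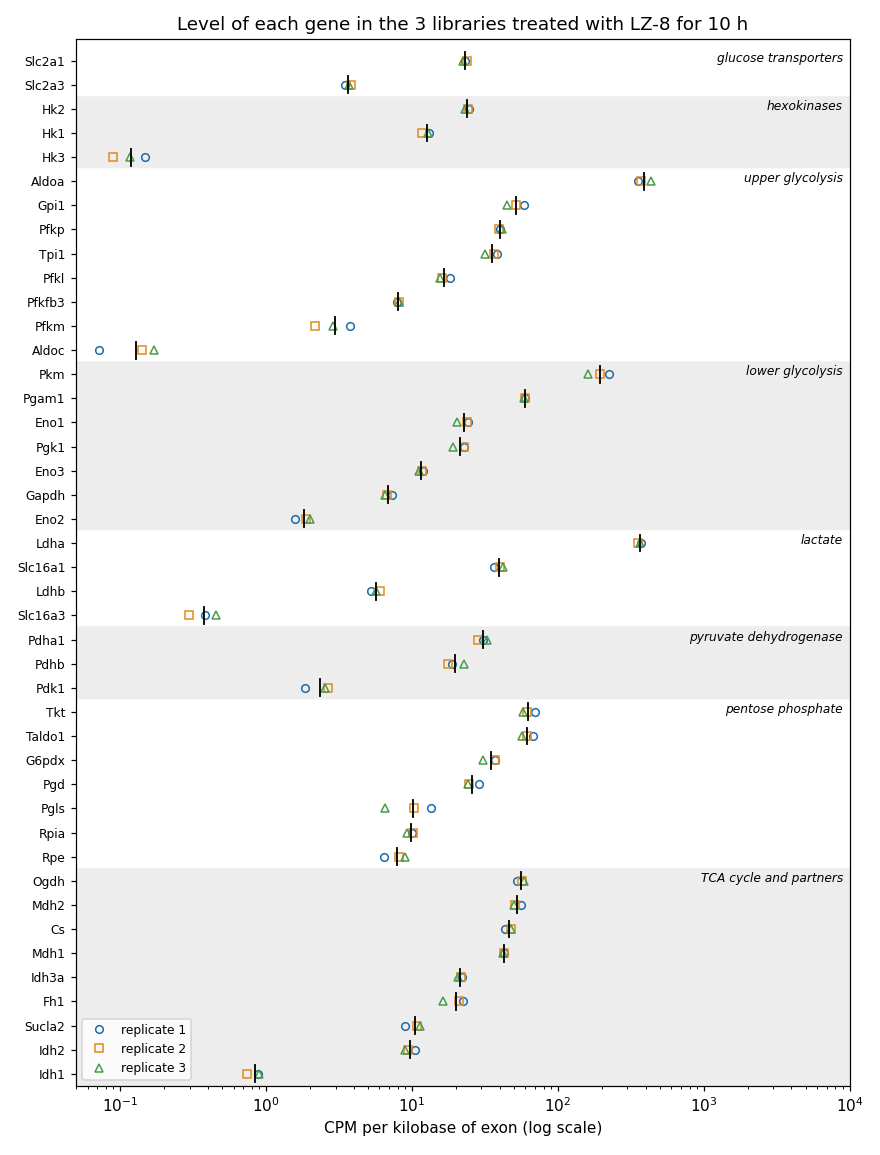
Level of each of the 43 genes in CPM per kilobase of exon, on a log axis, grouped by role. Open symbols are the 3 libraries and the black bar is their mean. Aldoa, Ldha and Pkm lie highest, at 388, 365 and 194 CPM per kilobase, and Aldoc and Hk3 lie lowest.

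Glucose enters T cells through facilitative transporters. Slc2a1, which encodes the transporter GLUT1, had 81.7, 83.8 and 79.1 CPM in replicates 1, 2 and 3. Slc2a3, which encodes the high-affinity transporter GLUT3, had 25.1, 27.9 and 26.8 CPM. Each gene kept within 1.11-fold across libraries. Per kilobase Slc2a1 stood 6.34-fold above Slc2a3, a log2 ratio of 2.66 ± 0.07, and made up 86.4 ± 0.593% of the summed level of the pair (SD, n = 3). Per kilobase of the longest coding transcript these were 3.72-fold and 78.8%.

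Hexokinases trap glucose in the cell by phosphorylating it. Hk2, the inducible form that binds mitochondria, had 146, 146 and 138 CPM, and Hk1, the form found in most tissues, had 113, 101 and 111 CPM. Hk3 was barely detected, with 7, 5 and 7 counts. The gap between Hk1 and Hk2 depended on the length used: Hk2 was higher in the mean throughout, but the log2 ratio of Hk1 to Hk2 was -0.93 ± 0.11 per kilobase of all annotated exons and -0.046 per kilobase of the longest coding transcript (SD, n = 3). Hk1 lay 109-fold above Hk3 per kilobase of all exons and 189-fold per kilobase of the longest coding transcript.

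In upper glycolysis, Aldoa led. This gene for aldolase A, which splits the phosphorylated hexose into 2 trioses, had 1026, 1091 and 1275 CPM in replicates 1, 2 and 3, highest in replicate 3. Its brain form Aldoc had 3, 7 and 9 counts, and in replicate 1 Aldoa made up 99.977% of the counts of the pair, with an exact 95% Clopper-Pearson interval of 99.933 to 99.995% that covers counting error only. Phosphofructokinase, the committed step of the pathway, was carried mainly by the platelet form. Pfkp had 543, 530 and 554 CPM, the liver form Pfkl had 122, 108 and 104 CPM, and the muscle form Pfkm had 12.6, 7.25 and 9.66 CPM. As shares of the family per kilobase, these were 67.4 ± 2.34% for Pfkp, 27.7 ± 1.58% for Pfkl and 4.88 ± 1.15% for Pfkm (SD, n = 3). Per kilobase of the longest coding transcript they were 79.7%, 18.2% and 2.08%. The Pfkp exons overlap those of Pitrm1 on the opposite strand over 748 bases, so part of the Pfkp counts is uncertain. Pfkfb3, which makes the activator of phosphofructokinase, had 59.7, 61.3 and 61.7 CPM and varied little. The isomerases Gpi1, which converts glucose phosphate to fructose phosphate, and Tpi1, which interconverts the trioses, had 334 ± 43.9 and 97.6 ± 8.71 CPM (SD, n = 3), and both were highest in replicate 1 and lowest in replicate 3.

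The enzymes of lower glycolysis did not stand at like levels in the table. Pkm, which encodes the pyruvate kinase of most tissues and makes pyruvate and ATP, had 1127, 977 and 800 CPM, and replicate 3 was the lowest. Gapdh, which oxidizes glyceraldehyde phosphate and is widely used as a reference gene, had 30.0, 27.8 and 26.9 CPM, which put it 31st by CPM among the 43 genes. Pgk1, whose enzyme makes the first ATP of the pathway, had 50.8, 51.2 and 43.1 CPM. Pgam1, a phosphoglycerate mutase, had 119, 119 and 117 CPM, and the enolase gene Eno1 had 131, 128 and 109 CPM. The neuronal and muscle enolases Eno2 and Eno3 had means of 8.61 ± 1.04 and 20.1 ± 0.690 CPM (SD, n = 3).

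The rows of Gapdh, Pgk1, Eno1 and Pgam1 stood beside high counts on near-identical copies. Many glycolytic genes have processed pseudogenes, copies of their spliced mRNA elsewhere in the genome. A row of the table was taken as a copy when its transcript matched a member with at least 90% identity over at least 50% of its length. By this rule 15 members had copies, on 142 rows, and 28 had none. For Gapdh, Pgk1, Eno1 and Pgam1 the copies held more counts than the gene. Gapdh held 1237 counts over the 3 libraries, against 33790 counts on 105 copy rows, of which 99 had a count. Pgk1 held 2118 counts against 16327 on 3 rows, Eno1 held 5356 against 23364 on 2 rows, and Pgam1 held 5207 against 8462 on 3 rows. With the copies added, Gapdh came to 866, 779 and 755 CPM in replicates 1, 2 and 3 and ranked 4th, the gene's own row being 3.53% of this. The own row was 11.5% of the sum for Pgk1, 18.7% for Eno1 and 38.1% for Pgam1.

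The coding sequences show how near these copies are. A stretch of 90 coding bases is printed for Gapdh, Pgk1, Pgam1 and Eno1 from GENCODE M21 (GRCm38), with capitals in a copy where it differs from the gene and, where the copy is the same, the gene's letters only. The stretch of Gapdh (gene at chr6:125161715-125166467, minus strand, coding bases 496 to 585) is the same in Gm13394 (chr2:28933610-28934609, minus strand) and in Gm5559 (chr5:95861714-95862715, plus strand).
Gapdh: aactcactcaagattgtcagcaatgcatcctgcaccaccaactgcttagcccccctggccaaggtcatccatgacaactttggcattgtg
The stretch of Pgk1 (chrX:106187100-106203699, plus strand, coding bases 583 to 672) is the same in Pgk1-rs7 (chr12:10898986-10900240, minus strand).
Pgk1: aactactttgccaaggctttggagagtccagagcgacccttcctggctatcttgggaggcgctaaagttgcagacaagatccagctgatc
The stretch of Pgam1 (chr19:41911923-41918660, plus strand, coding bases 337 to 426) is the same in Pgam1-ps2 (chr7:27469771-27470535, minus strand).
Pgam1: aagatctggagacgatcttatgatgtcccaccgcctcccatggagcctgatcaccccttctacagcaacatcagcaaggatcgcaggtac
The main copy of Eno1, Gm5506, matched it at 99.5% of 1736 bases and is not printed. The other, Gm8483 (chr14:14447661-14448944, minus strand), with a mean of 3.58 CPM, differs at 4 bases of a stretch of Eno1 (chr4:150236721-150248879, plus strand, coding bases 607 to 696).
Eno1: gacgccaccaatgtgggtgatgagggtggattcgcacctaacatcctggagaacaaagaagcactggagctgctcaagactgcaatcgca
Gm8483: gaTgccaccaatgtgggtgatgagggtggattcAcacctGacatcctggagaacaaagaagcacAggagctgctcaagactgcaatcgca
Aldoa, whose own row held 97.4% of the sum (chr7:126795234-126800751, minus strand, coding bases 583 to 672), likewise differs at 4 bases of such a stretch from its testis-expressed retrogene Aldoart1 (chr4:72850583-72852634, minus strand).
Aldoa: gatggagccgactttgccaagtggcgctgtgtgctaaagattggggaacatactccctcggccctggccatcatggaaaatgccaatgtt
Aldoart1: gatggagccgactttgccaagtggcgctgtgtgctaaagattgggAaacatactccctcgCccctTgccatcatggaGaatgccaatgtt
Windows of 100 bases of the coding sequence were found unchanged in a copy for 93.9% of the windows of Gapdh and for 100% of those of Pgk1 and Pgam1, against 68.4% for Eno1 and 0% for Aldoa. A read that lies within such a window fits both places equally well, and how the authors placed such reads is not stated. Whether the counts on the copies came from the parent gene was not tested.

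**Figure D2:**
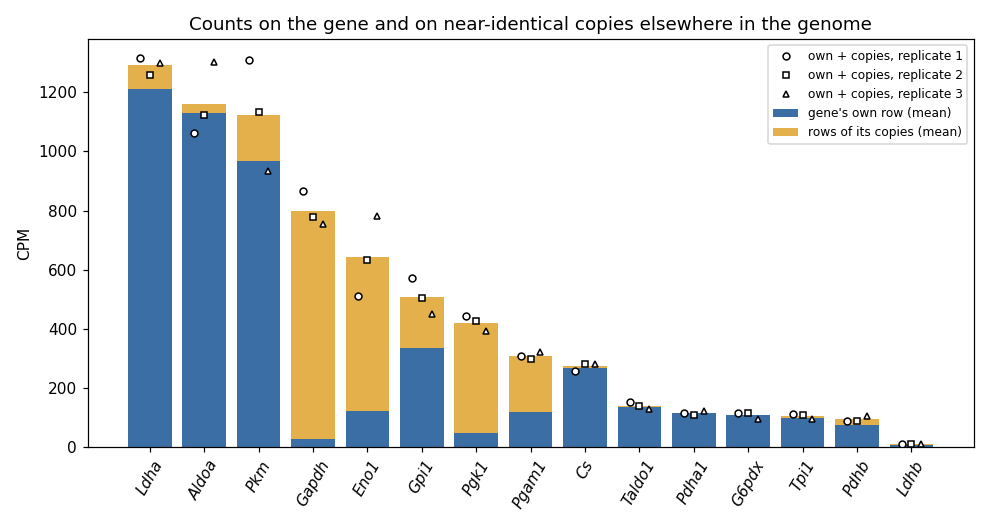
Mean CPM of the 15 members with copy rows, as bars that start at 0, with the gene's own row in blue and the rows of its copies in orange. Symbols are the sums in the 3 libraries. For Gapdh, Eno1, Pgk1 and Pgam1 the orange part exceeds the blue part.

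Among the copies, 25 rows held a mean of 10 CPM or more. The enolase copy Gm5506, which the annotation names Eno1b, had 375, 503 and 670 CPM in replicates 1, 2 and 3, highest in replicate 3, whereas the Eno1 row was lowest there. Pgk1-rs7 had 219 ± 24.2 CPM and the second Pgk1 copy, Gm5537, had 153 ± 6.34 CPM (SD, n = 3). Pgam1-ps2 had 180, 173 and 198 CPM in replicates 1, 2 and 3. The Gpi1 copy Gm1840 had 175 ± 19.1 CPM and the Pkm copy Gm6560 had 131 ± 16.6 CPM (SD, n = 3). Gm13394 was the highest of 13 Gapdh copies past 10 CPM, with 272, 215 and 209 CPM. The other 12 were Gm5559, Gm7336, Gm12070, Gm2606, Gm2451, Gm12671, Gm14760, Gm10359, Gm12033, Gm12537, Gm2574 and Gm4609, at means of 11.7 to 57.0 CPM. Copies of Ldha (Gm5452, Gm9247 and Ldha-ps2), of Pkm (Gm6992), of Aldoa (Aldoart1) and of Pdhb (Gm6123) lay between 11.5 and 33.5 CPM. For Ldha and Pkm the gene's own row still held 93.6% and 86.1% of the sum.

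Lactate is made by lactate dehydrogenase and leaves through monocarboxylate transporters. Ldha, which encodes the A subunit that favours the making of lactate, had 1237, 1178 and 1212 CPM, the highest mean of the set by CPM (gene at chr7:46841475-46855627, plus strand). Ldhb, the B subunit of heart and other oxidative tissues, had 105, 144 and 144 counts, a mean of 8.89 ± 0.625 CPM (SD, n = 3). Each Ldha value lay far above each Ldhb value, the log2 ratio per kilobase being 6.01 ± 0.14 (SD, n = 3), 64.6-fold, or 97.9-fold with the longest coding transcript as length. The transporters were as unequal. Slc16a1 (MCT1) had 161, 179 and 187 CPM, and Slc16a3 (MCT4), known from tissues that export much lactate, had 2.04, 1.58 and 2.42 CPM. Per kilobase Slc16a1 was 106-fold above Slc16a3.

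The promoters of the pair of lactate dehydrogenase genes are printed because the pair differed 64.6-fold in level while both genes were detected in every library. They run from 250 bases before to 50 after the start of transcription in RefSeq (GRCm38.p6), with each ACGTG, on either strand and with the overlapping CACGTG, in capitals. ACGTG and GCGTG are the forms of the core bound by hypoxia-inducible factors, and CACGTG, which contains it on both strands, is the E-box bound by Myc and other factors. Ldha lies at chr7:46845554-46845853 (plus strand) for the start shown, and Ldhb at chr6:142507908-142508207 (minus strand).
Ldha: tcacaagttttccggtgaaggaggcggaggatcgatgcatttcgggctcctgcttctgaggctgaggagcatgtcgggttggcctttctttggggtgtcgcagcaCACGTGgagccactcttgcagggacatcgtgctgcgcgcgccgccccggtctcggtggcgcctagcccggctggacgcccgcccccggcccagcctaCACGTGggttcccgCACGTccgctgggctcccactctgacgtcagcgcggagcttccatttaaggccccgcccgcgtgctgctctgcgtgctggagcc
Ldhb: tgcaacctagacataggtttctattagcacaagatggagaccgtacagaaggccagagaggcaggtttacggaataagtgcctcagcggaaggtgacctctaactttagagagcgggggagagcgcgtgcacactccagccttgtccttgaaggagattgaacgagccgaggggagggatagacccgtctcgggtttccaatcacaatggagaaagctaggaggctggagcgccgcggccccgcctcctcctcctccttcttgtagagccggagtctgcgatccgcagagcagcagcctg
The Ldha window held 3 such places, the most of any window of the set, the window of the second Ldha start held 0, and the Ldhb window held 0. GCGTG, on either strand, was present in both Ldha windows and in the Ldhb window, and in 68.3% of members, against 35.2% of all genes and 59.8% of coding genes at 10 CPM or more. ACGTG was present in 19 of the 41 members with a window, 46.3%, against 21.8% of all genes and 31.8% of coding genes at 10 CPM or more. CACGTG was present in 12.2% of members, 8.09% of all genes and 12.9% of coding genes at 10 CPM or more. The Sp1-type box GGGCGG, on either strand, was present in 80.5% of members, against 38.2% of all genes and 72.3% of coding genes at 10 CPM or more. In these shares a gene counted when any of its windows held the motif. Members had 61 windows for 41 genes, and coding genes at 10 CPM or more had 7971 for 6243. Per window, the shares of these groups were 65.6% and 65.4% for GGGCGG and 60.7% and 53.7% for GCGTG. They were 44.3% and 27.6% for ACGTG and 11.5% and 10.9% for CACGTG. A match in these letters is a description of the window, and no binding was measured.

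Pyruvate dehydrogenase opens the way into mitochondria. Pdha1, the catalytic alpha subunit, had 116, 107 and 122 CPM, and Pdhb, its beta partner, had 73.3, 68.1 and 88.3 CPM. Pdk1, a kinase that switches the complex off, had 14.5, 20.8 and 19.8 CPM. Both subunits were highest in replicate 3 and lowest in replicate 2, and Pdk1 was lowest in replicate 1. The ratio of Pdha1 to Pdhb was 0.64 ± 0.11 on the log2 scale per kilobase of all exons and -0.32 per kilobase of the longest coding transcript (SD, n = 3), so the order of these subunits could not be set. Map3k15 overlaps the exons of Pdha1 over 603 bases on the opposite strand, and that row had 0.502 CPM.

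The pentose phosphate genes were all detected at 10 CPM or more. In the oxidative arm, G6pdx, the glucose phosphate dehydrogenase that commits glucose to the pathway, had 114, 114 and 94.3 CPM. Pgls, the lactonase that follows, had 50.7, 39.2 and 24.7 CPM, and Pgd, the phosphogluconate dehydrogenase, had 186, 159 and 157 CPM. All 3 were lowest in replicate 3. In the non-oxidative arm, which exchanges sugars with glycolysis, Tkt (transketolase) had 516, 451 and 423 CPM and Taldo1 (transaldolase) had 147, 133 and 124 CPM. Rpia and Rpe, the isomerase and epimerase of ribulose phosphate, were lower, with means of 52.8 ± 2.59 and 24.5 ± 4.04 CPM (SD, n = 3). Per kilobase of all exons, Tkt at 63.0 and Taldo1 at 62.0 CPM stood 4th and 5th of all members, and per kilobase of the longest coding transcript 4th and 8th. Pgls shares 776 exonic bases, 20.6% of its exons, with Fam129c on the same strand, and Rpe shares 558 bases with Kansl1l on the opposite strand, so the levels of both are uncertain. G6pdx shares 418 bases with Ikbkg, on the opposite strand, which had 60.1 CPM.

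In the TCA cycle, every enzyme of the set but Idh1 reached 10 CPM. Ogdh, the oxoglutarate dehydrogenase, had 286, 309 and 319 CPM, and Cs, the citrate synthase at the entry of the cycle, had 250, 275 and 276 CPM. Mdh2, the mitochondrial malate dehydrogenase, had 200, 181 and 179 CPM, and its cytosolic partner Mdh1 had 111, 111 and 108 CPM. Per kilobase of all exons these enzymes ran from 42.7 CPM for Mdh1 to 55.9 CPM for Ogdh, and per kilobase of the longest coding transcript from 51.7 CPM for Mdh1 to 128 CPM for Mdh2. Idh3a, the catalytic subunit of the NAD-dependent isocitrate dehydrogenase, had 109 ± 3.19 CPM, fumarase Fh1 had 68.0 ± 10.8 CPM and the succinate-CoA ligase subunit Sucla2 had 41.7 ± 5.00 CPM (SD, n = 3). Of the NADP-dependent isocitrate dehydrogenases, mitochondrial Idh2 had 27.0, 24.5 and 23.4 CPM and cytosolic Idh1 had 2.44, 2.04 and 2.48 CPM. Idh2 stood 11.5-fold above Idh1 per kilobase.

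Across the pairs, 13 ratios between paired genes kept their sign in all 3 libraries per kilobase of all exons. With the longest coding transcript as length, the mean of Pdha1 to Pdhb turned to -0.32 and that of Hk1 to Hk2 was -0.046. On the scale of all exons, the exact two-sided sign-flip test over 3 libraries gave p = 0.25 for each ratio. This is the smallest p it can give, so no ratio could pass a threshold of 0.05. The scale of these ratios was wide: log2 ratios per kilobase ran from -1.28 ± 0.13 for Pfkl to Pfkp to 11.65 ± 0.52 for Aldoa to Aldoc (SD, n = 3). Mdh2 to Mdh1 was 0.30 ± 0.08 per kilobase of all exons and 1.31 per kilobase of the longest coding transcript (SD, n = 3). With copies added, Eno1 to Eno2 stood at 6.01 in place of 3.64, Eno1 to Eno3 at 3.34 in place of 0.97 and Ldha to Ldhb at 5.72 in place of 6.01. With the longest coding transcript as length and no copies, Eno1 to Eno2 stood at 4.29, Eno1 to Eno3 at 2.22 and Pfkl to Pfkm at 3.16 in place of 2.53.

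**Figure D3:**
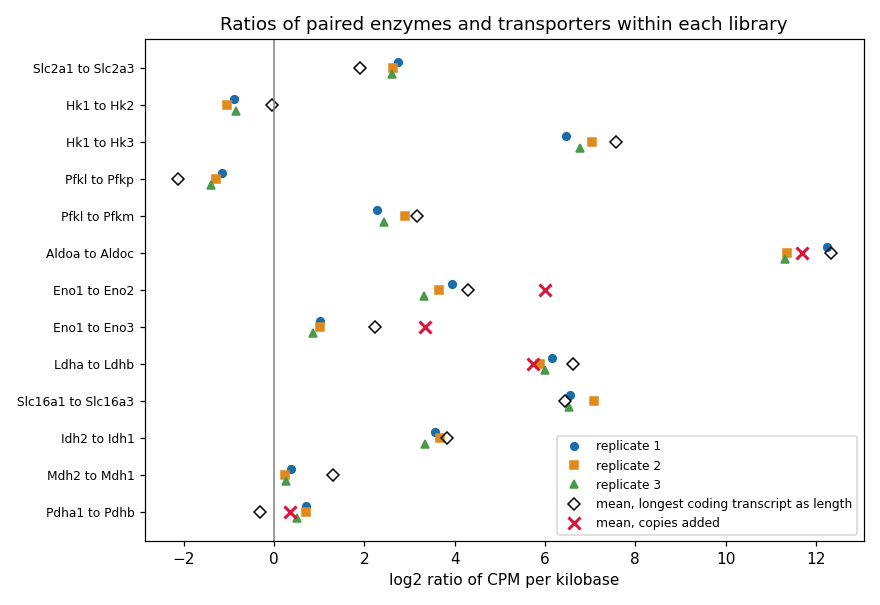
Log2 ratio of the CPM per kilobase of paired genes in each of the 3 libraries, with the mean for another length as open diamonds and the mean with copies added as crosses. The line marks equal levels. Aldoa to Aldoc lies farthest right, near 11.65, and Pdha1 to Pdhb crosses the line when the longest coding transcript is the length.

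The libraries were also compared with each other, which asks whether a member's level was the same in the replicates beyond counting noise. By a chi-square test of the 3 counts with Benjamini-Hochberg adjustment over 15392 genes, 26 of the 43 members differed between libraries, against 42.8% of all genes tested and 58.5% of genes at 10 CPM or more. Of the 26, 15 were highest in replicate 1, which is 34.9% of the members. Among all genes tested it was 17.9%, and among genes at 10 CPM or more 22.5%. A further 9 were highest in replicate 3, 20.9% of the members, against 19.1% of all genes and 28.9% at 10 CPM or more. Replicate 2 was highest for 2, 4.65% against 5.76% and 7.06%. As shares of the genes that differed, replicate 1 was highest for 57.7% of members and 41.9% of all genes, and replicate 3 for 34.6% and 44.7%. Among genes at 10 CPM or more that differed, these shares were 38.5% and 49.4%. With no scaling factor, 10 of these 26 members were highest in replicate 1, 11 in replicate 3 and 5 in replicate 2. Leaving out the factors shifts the log2 ratio of replicate 3 to replicate 1 by 0.098 in every gene. The split over all genes is not given for that setting, so it describes the members only. Most differences that passed were small: 2 members both passed the test and spanned 1.5-fold or more between the highest and the lowest library. Both conditions held for 13.8% of all genes tested and 10.7% of genes at 10 CPM or more. The 2 members were Pgls, 2.05-fold (chi-square, adjusted p = 7.59e-28), and Pfkm, 1.74-fold (chi-square, adjusted p = 0.000141). Aldoc, Hk3 and Slc16a3 spanned 2.37-fold, 1.67-fold and 1.53-fold on few counts and did not pass. Pfkm overlaps 18 exonic bases of Senp1, a gene on the other strand with 128 CPM, and the part of that overlap was not tested.

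By role, 6 of 7 pentose phosphate genes differed between libraries, 5 of them highest in replicate 1 and Rpe highest in replicate 3. Tkt was 1.22-fold higher in replicate 1 than in replicate 3 (chi-square, adjusted p = 2.36e-29). In upper glycolysis 6 of 8 genes differed, with Gpi1 1.30-fold higher in replicate 1 than in replicate 3 and Aldoa 1.24-fold higher in replicate 3 than in replicate 1 (chi-square, adjusted p = 2.08e-35 and 2.90e-93). In lower glycolysis 3 of 7 differed, namely Pkm, Eno1 and Pgk1, and Pkm was 1.41-fold higher in replicate 1 than in replicate 3 (chi-square, adjusted p = 3.47e-174). All 3 pyruvate dehydrogenase genes, 5 of 9 TCA cycle genes (Cs, Ogdh, Sucla2, Fh1 and Mdh2) and 2 of 4 lactate genes (Ldha and Slc16a1) differed. Hk1 was the hexokinase that differed, and neither glucose transporter passed. With no scaling factor, replicate 3 over replicate 1 changed direction for Hk1 and Ldha among these 26, and every log2 ratio of replicate 3 to replicate 1 shifted by 0.098.

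**Figure D4:**
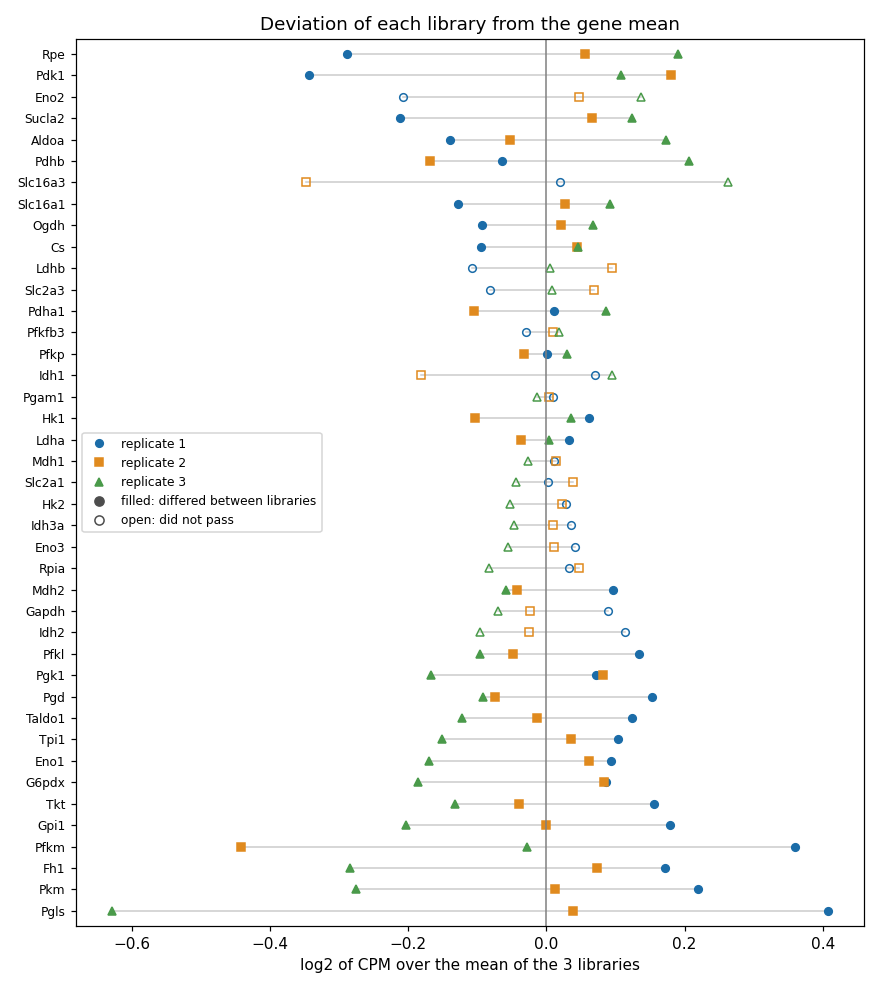
Log2 of each library's CPM over the mean of the 3 libraries, for the 41 members whose mean reached 1 CPM, ordered by replicate 3 against replicate 1. Filled symbols are genes that differed by the chi-square test and open symbols those that did not pass. Pgls and Pkm stand low in replicate 3, and Rpe and Pdk1 stand low in replicate 1.

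Base composition and length moved with these differences. Among coding genes at 10 CPM or more, the median log2 ratio of replicate 3 to replicate 1 was 0.21 in the tercile with the lowest GC content, 0.06 in the middle tercile and -0.05 in the highest. The members followed the same order, with medians of 0.28 (6 genes), -0.03 (14 genes) and -0.24 (16 genes). By exonic length, from the shortest to the longest tercile, the medians were -0.08, 0.07 and 0.16 for coding genes and -0.13 (14 genes), -0.08 (13 genes) and -0.03 (9 genes) for members. Pgls had the highest GC content of the set, 65.9%, and Rpe the lowest, 39.1%. When expected counts were corrected for length and GC content, 23 members differed, 21 of them among the 26. Mdh2, Rpe, Slc16a1, Sucla2 and Taldo1 no longer passed, whereas Hk2 and Idh3a passed only with the correction. The log2 ratio of replicate 3 to replicate 1 turned from 0.03 to -0.11 for Pfkp and from 0.08 to -0.04 for Pdha1. After correction Pfkp and Pdha1 were highest in replicate 1, and Tpi1, Eno1, G6pdx and Cs in replicate 2. With the copies added to each gene, 28 differed, Gapdh and Pgam1 being the added ones, and Eno1 was then highest in replicate 3, by a log2 ratio of 0.62 over replicate 1 against -0.26 for its own row. Without replicate 1, 15 members differed, and those lost were Cs, Mdh2, Ogdh, Pdk1, Pfkl, Pfkm, Pgd, Rpe, Slc16a1, Sucla2 and Taldo1. Calls over all genes were fewer as well: replicates 2 and 3 alone differed in 3836 of 15717 genes tested, with the factors from all 3 libraries. The share of all genes is not given for the correction or for the added copies, so those counts describe the members only. The part of base composition and of length in the differences was not tested.

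**Figure D5:**
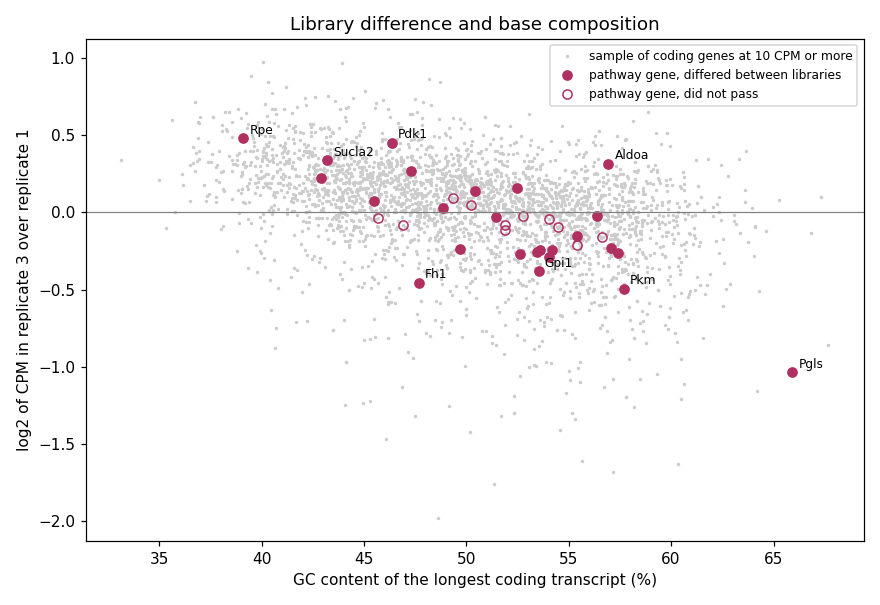
Log2 of CPM in replicate 3 over replicate 1 against the GC content of the longest coding transcript, for a random sample of coding genes at 10 CPM or more in grey and for the members in red. Filled red points differed between libraries. Pgls, at 65.9% GC, lies lowest of the members, and Rpe, at 39.1% GC, lies highest of those drawn.

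Further genes of these pathways filled in the steps the 43 leave out. Of 54 listed, 53 were found by symbol (Tigar was not matched), 27 reached 10 CPM, 17 were under 1 CPM and 11 of these were at 0. The rest of the TCA cycle was present throughout, with 11 of 11 genes at 10 CPM or more. Sdha, a subunit of succinate dehydrogenase, had 226, 204 and 205 CPM. Dlst, a partner of Ogdh, had 165 ± 2.03 CPM, Sdhb had 110 ± 16.3 CPM and Idh3b had 101 ± 14.6 CPM (SD, n = 3). The genes at 0 in all libraries, which allows up to 0.236 CPM in the shallowest, included Slc2a4, the insulin-responsive glucose transporter of muscle and fat, Pgk2 and Ldhc of testis, Pdk4, Tktl1 and Tktl2. Pklr, the pyruvate kinase of liver and red cells, had 3 counts in all, in replicates 1 and 2. Of the 36 tested between libraries, 17 differed, against 42.8% of all genes tested and 58.5% of genes at 10 CPM or more.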

How the data were processed

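The authors deposited raw counts for each gene symbol in each of the 3 libraries, made on mm10, per the submitters' processing notes. Not given in the sources used here are the aligner, counter, annotation, strand setting and treatment of reads with several matches. Libraries followed the Ion Proton RNA-Seq kit protocol, per the labels, with no molecular identifiers stated, so intervals and limits cover counting error only.

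The 43 members were found by symbol; symbols of 32193 of 44788 rows matched GENCODE M21 (GRCm38), 1196 of them by an older name, and gave lengths and GC content. Counts were scaled by TMM (edgeR 4.0.16, R 4.3.3; factors 0.962, 1.01 and 1.03). Libraries were compared by a chi-square test of raw counts (scipy 1.17.1) for genes with an expected count of at least 5 per library, with 0.05 as the limit for the Benjamini-Hochberg adjusted p; the step was tested on simulated data. It compares libraries, not conditions. Copies were found with blastn 2.17.0 among GENCODE transcripts whose best coding match was the member. Promoters were RefSeq windows of GRCm38.p6, found for 41 members. The alternatives tried were DESeq2 1.42.0 size factors or no scaling, other lengths, filters and thresholds, a spline in length and GC content, copies added, and each replicate left out. All members are named, as are other pathway genes of 100 CPM or more (at most 12) and copies of 10 CPM or more, apart from a few genes that are not reported here; genes at 0, Pklr and the remaining exit genes were named after their values were seen. The members and lists were chosen with earlier results of these data known. Chi-square calls showed no library to be a copy of another, as pairs differed in 3555 to 6384 genes.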

Additional observations from a re-analysis of the deposited data

How the results depend on the processing

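No paired analysis was possible because the data hold a single group, with no second group to pair. The 3 alternatives added (the longest coding transcript as length, for ratios and for medians, and copies in the comparison of libraries) were chosen after seeing the data. The count of members at 10 CPM or more was 36 to 37 with a replicate left out, and the count differing between libraries was 15 to 22, against 26, with 15 when replicate 1 was left out. Of all genes tested, 3555 of 15573 differed between replicates 1 and 2. These numbers were 6384 of 15360 for replicates 1 and 3, and 3836 of 15717 for replicates 2 and 3. The count of members differing was 25 with no scaling, 26 with DESeq2 size factors and 23 with the length and GC correction. For these settings the share of all genes is not given, so the counts describe the members only. No mean level over the 3 libraries changed with the scaling by more than the spread between replicates. Such a mean could hardly move, because the scalings share the same geometric mean of library sizes, so the levels of single libraries were not checked by this. With a replicate left out, every log2 ratio kept its sign, and that of Hk1 to Hk2 lay between -0.97 and -0.87. Other ratios moved more, with 11.35 to 11.81 for Aldoa to Aldoc and 2.35 to 2.66 for Pfkl to Pfkm.

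With the longest transcript as length, the median level in CPM per kilobase was 26.5 for all members, 14.6 for glucose transporters, 25.2 for hexokinases, 45.3 for upper glycolysis, 26.5 for lower glycolysis, 32.2 for pyruvate dehydrogenase, 40.5 for the pentose phosphate pathway and 42.3 for the TCA cycle. With the longest coding transcript it was 29.8, 15.9, 25.2, 45.3, 26.5, 40.3, 40.5 and 42.3. Per kilobase of all exons, the scale used above, these medians were 21.5, 13.5, 12.7, 26.1, 21.5, 19.8, 26.0 and 21.5. The order of the groups thus depended on the length used. On the scale of all exons, members of at least 1 CPM gave 18.3 for hexokinases and 35.5 for upper glycolysis.

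The log2 ratios with the longest transcript, the longest coding transcript and no division by length were 2.56, 1.90 and 1.62 for Slc2a1 to Slc2a3. They were -0.046, -0.046 and -0.41 for Hk1 to Hk2, 7.57, 7.57 and 7.98 for Hk1 to Hk3, -1.07, -2.14 and -2.29 for Pfkl to Pfkp, and 3.16, 3.16 and 3.53 for Pfkl to Pfkm. They were 2.22, 2.22 and 2.60 for Eno1 to Eno3, 6.61, 6.61 and 7.09 for Ldha to Ldhb, and 1.17, 1.31 and 0.77 for Mdh2 to Mdh1. Both transcript lengths gave 12.33 for Aldoa to Aldoc and 4.29 for Eno1 to Eno2, and they gave 3.79 and 3.83 for Idh2 to Idh1. Pdha1 to Pdhb was 0.33 with the longest transcript and changed sign, to -0.32, with the longest coding transcript, since the length of each gene sets its level. With copies added, the ratios were 6.01 for Eno1 to Eno2, 3.34 for Eno1 to Eno3, 5.72 for Ldha to Ldhb and 0.34 for Pdha1 to Pdhb. Depth limits Hk3 and Aldoc, each with 19 counts in all.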

Other observations

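Genes that draw on the intermediates of these pathways were also measured. Acly, which turns exported citrate into cytosolic acetyl-CoA for lipid synthesis, had 477, 462 and 477 CPM in replicates 1, 2 and 3, and did not pass the chi-square test between libraries. The aspartate aminotransferases Got1 (cytosolic) and Got2 (mitochondrial) had 184, 181 and 158 CPM and 105, 103 and 96.0 CPM. Pck2, the mitochondrial phosphoenolpyruvate carboxykinase, had 191, 153 and 141 CPM, highest in replicate 1, whereas its cytosolic form Pck1 was at 0 in all libraries. Of the gluconeogenic genes, Fbp1 and Fbp2 were also at 0, and pyruvate carboxylase Pcx had 3.69, 3.30 and 2.48 CPM. Mitochondrial malic enzyme Me2 had 72.5 ± 3.43 CPM (SD, n = 3), and cytosolic Me1 had 3 counts, all in replicate 3.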
